A study of Mus musculus with 7 samples.

Results

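The genes described here are 37 immediate early, heat shock and NF-kB feedback genes, a set that is often read as a sign of how tissue was handled before its RNA was taken. They were taken from a list of names and not by a threshold on values, though the list was chosen with earlier results of these data known. All 37 were found among the 52550 genes of the count files, with Cyr61 matched to its newer symbol Ccn1. After the filter on low counts, 34 of the 37 stood among the 17449 genes tested. Fosl1, Egr3 and Dusp2 had too few counts and are given as levels only.

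The 7 libraries hold polyadenylated RNA of Paneth cells sorted from small-intestinal crypts, and the study asked how these cells react to gut inflammation. All mice were C57BL/6J and carried the Lgr5-EGFP-IRES-CreERT2 knock-in, so the controls have the altered Lgr5 locus too. The 4 DSS libraries came from mice given 3% dextran sulfate sodium, a polymer toxic to the gut lining, in drinking water over 7 days and taken 3 days after it was withdrawn. The 3 water libraries came from mice on plain water. The mice were 12, 12 and 10 weeks old for water 1 to 3, and 12, 10, 10 and 10 weeks old for DSS 1 to 4. The RNA was isolated in November, on days 14, 14 and 21 for the water libraries and on days 9, 16, 16 and 24 for the DSS libraries, so no day held both groups. Water 3, DSS 2 and DSS 3 share a number in their titles, whose meaning the labels do not give, and the title of DSS 2 marks it as merged without saying of what. Nothing in the labels states outright that each library is 1 animal, so the p-values refer to the spread of these samples, which may be technical.

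Per the labels' protocols, every library passed through the same steps: crypts were freed in 2 mM EDTA for 30 minutes at 4 °C, digested to single cells with TrypLE for 10 minutes at 37 °C, stained and sorted live. Cells bearing TER119, CD31 or CD45 were gated out. All 8 Paneth cell markers, among them Lyz1, Defa24 and Mmp7, had counts in every library, and their summed level was 218560, 230030 and 221900 counts relative to library size (CPM) in water 1 to 3 against 185470, 148160, 105970 and 112880 CPM in DSS 1 to 4. The summed level of 7 tuft cell markers was 477, 528 and 481 CPM in water and 479, 902, 897 and 456 CPM in DSS 1 to 4, so DSS 2 and DSS 3 stood apart. That of 7 enteroendocrine markers varied more, at 46.8, 1286 and 2311 CPM in water and 740, 407, 1117.5 and 1114 CPM in DSS 1 to 4. For 6 goblet cell markers it was 10731, 10924 and 9774 CPM in water and 8898, 10846, 7738 and 12768 CPM in DSS, highest in DSS 4. Each of the 6 T cell markers and 5 mesenchymal markers had too few counts for the test, with summed levels of at most 0.176 and 0.324 CPM. Ptprc, which encodes CD45, measured 9.24, 13.5 and 8.10 CPM in water and 10.2, 16.4, 16.8 and 7.86 CPM in DSS, so DSS 2 and DSS 3 were highest here too. In bulk samples such as these, fewer cells of a type and less RNA per cell cannot be told apart. The libraries held 23175708 to 32451653 counts each, and 3 counts stand for 0.0924 to 0.129 CPM at that depth.

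Immediate early genes are transcribed within minutes of a stimulus, without new protein synthesis, through factors that are present beforehand and are switched on by modification or release: serum response factor with its ternary complex partners, CREB, and NF-kB, which IkB proteins hold in the cytoplasm. Their products include the AP-1 subunits of the Fos and Jun families, and, as brakes on the response, phosphatases that switch off MAP kinases and proteins that speed the decay of short-lived messages. Heat shock genes answer misfolded protein through heat shock factor 1. Both programmes are known to be set off by enzymatic dissociation at warm temperature, and epithelial repair and inflammation use the same genes.

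The promoter stretches printed here are shown because they hold letters of known response elements upstream of members whose levels are described further on, and because those of Hspa1a and Hspa1b show how alike these genes are. RefSeq windows of 300 bases on GRCm38.p6, from 250 before to 50 after a transcription start site, were present for 30 of the 37 members, and both strands were searched. A CArG box, the serum response factor element, was found for 3 of the 30 members (10%: Dusp5, Egr2 and Zfp36) against 1.81% of 27025 genes. The cyclic AMP response element TGACGTCA was found for 3 (10%: Btg2, Dusp1 and Maff) against 2.03% of genes. An NF-kB element was found for 11 members (36.7%) against 9.55% of genes, and an AP-1 element, TGACTCA or TGAGTCA, for 1 (3.33%, Tnfaip3) against 5.95%. A heat shock element, GAANNTTCNNGAA or its reverse complement, was found for 1 (3.33%, Hsph1) against 0.662%. These are matches of letters within the windows, and no binding was measured. In the lines that follow, each sequence runs 5′ to 3′ on the strand of the gene and capitals mark the element. The Zfp36 stretch, with a CArG box at -58 to -49 from a RefSeq start site, is chr7:28379267-28379296 on the minus strand. The Dusp5 stretches, chr19:53529053-53529082 and chr19:53529063-53529092 on the plus strand, hold adjoining CArG boxes. The Dusp1 stretch, with the cyclic AMP element at -143 to -136, is chr17:26508598-26508625 on the minus strand. The Nfkbia stretch is chr12:55492657-55492686 and the Tnfaip3 stretch chr10:19015411-19015432, both on the minus strand with an NF-kB element. The Hspa1a stretch, chr17:34972270-34972299, and the Hspa1b stretch, chr17:34959352-34959381, both on the minus strand, hold the same letters around an NF-kB match, and the windows of these genes are identical at 296 of 300 bases.
Zfp36: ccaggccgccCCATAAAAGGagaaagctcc
Dusp5, first box: ggggaaatacCCATATTTGGccttatatgg
Dusp5, second box: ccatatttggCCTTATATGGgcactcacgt
Dusp1: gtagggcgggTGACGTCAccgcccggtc
Nfkbia: tgactggcttGGAAATTCCCcgcgcctgac
Tnfaip3: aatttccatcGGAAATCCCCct
Hspa1a: aagggaggcgGGGAAGCTCCaccagacgcg
Hspa1b: aagggaggcgGGGAAGCTCCaccagacgcg

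After DSS the 34 tested members showed no difference that passed the test, and the high values of several members came from some of the DSS libraries and not from all 4. With edgeR's quasi-likelihood test and Benjamini-Hochberg adjustment over all 17449 genes, 0 members were higher and 0 lower at an adjusted p under 0.05, as was the case for all genes (0% in each direction). Limma-voom also called 0 members, and DESeq2 called 1, Myc, where it called 2.61% of its tested genes higher. Scaling by library totals only gave 9 members higher, against 12.1% of all genes. Without the low-count filter 4 members were higher, against 0.684% of genes, and 1 lower, against 0.573%. Without DSS 1, 168 genes were higher and 135 lower, with 0 members among them. At an unadjusted p under 0.05, 8 members were higher (Myc, Zfp36, Fos, Fosb, Tnfaip3, Dusp1, Junb and Hspa1a) against 8.36% of all genes, and 1 was lower (Klf6) against 7.35%. For 5 members every DSS value exceeded every water value (Myc, Ier2, Zfp36, Dusp1 and Tnfaip3), which held for 7.40% of all genes, and for 0 members every DSS value was below every water value, against 7.51% of genes. The estimate was above 0 for 21 of 34 and below for 13. The median log2 change, DSS relative to water, was 0.16 over the members and 0.00 over all genes.

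**Figure D1:**
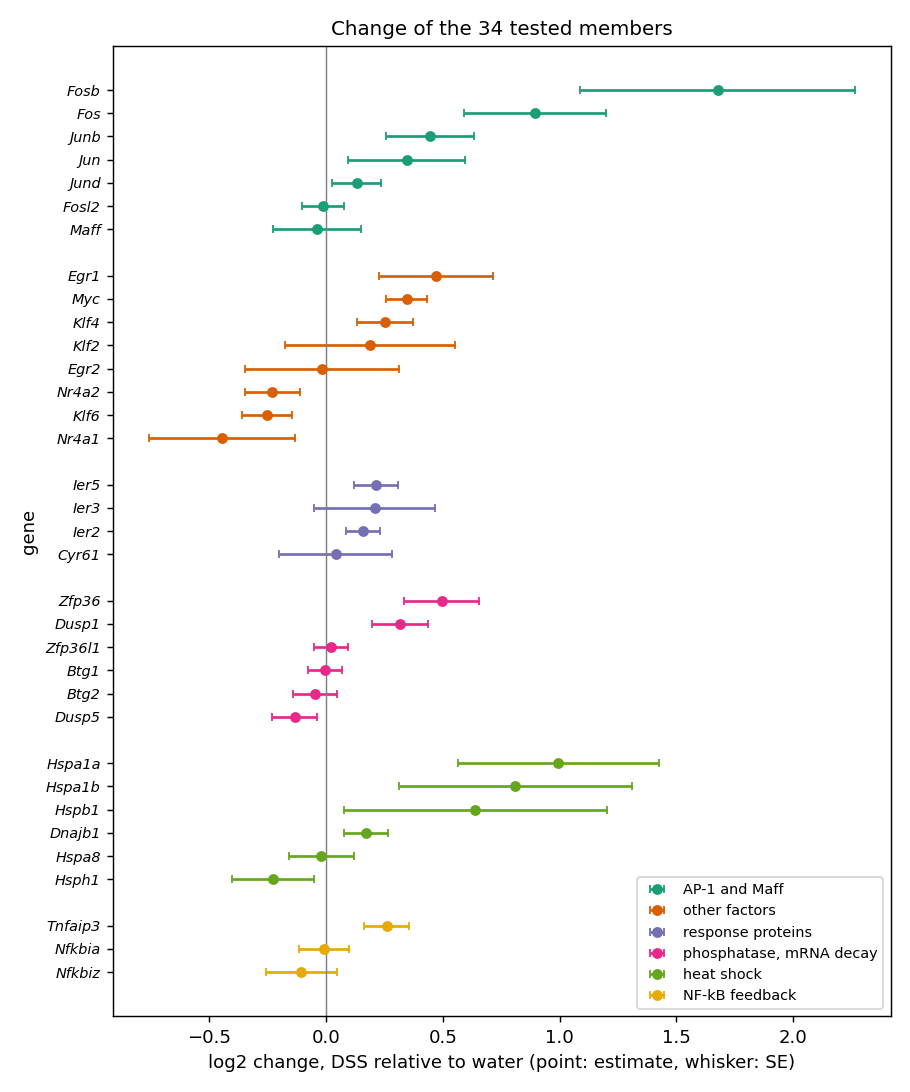
The estimated log2 change of each of the 34 tested members, DSS relative to water (x axis, log2 scale), in blocks by role; points are edgeR estimates and whiskers their standard errors. Fosb at 1.68 and Hspa1a at 0.99 lie farthest to the right with wide whiskers, and Nr4a1 at -0.45 farthest to the left.

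Among the 8 members that encode AP-1 subunits or the small Maf protein Maff, the Fos and Fosb messages varied most. Fos, the founding AP-1 subunit, at chr12:85473890-85477273 in the count files (mm10), measured 43.3, 28.6 and 34.8 CPM in water 1 to 3 and 40.6, 109, 56.5 and 58.3 CPM in DSS 1 to 4. DSS 2 was the highest library, DSS 3 and DSS 4 also lay above all water libraries, and DSS 1 lay within the water range. The means were 35.6 ± 7.40 CPM (SD, n = 3) and 66.1 ± 29.7 CPM (SD, n = 4), a log2 change of 0.90 ± 0.30 (SE) with an edgeR adjusted p of 0.223. Fosb, a Fos homologue with little message in resting cells, measured 2.45, 0.913 and 1.59 CPM in water and 1.499, 10.5, 4.67 and 4.37 CPM in DSS. Its order of DSS libraries was that of Fos at the top and bottom, with DSS 2 highest and DSS 1 inside the water range. The log2 change was 1.68 ± 0.59 (SE), with an edgeR adjusted p of 0.234. Without DSS 2 the change was 0.54 for Fos and 1.10 for Fosb, and without DSS 2 and DSS 3 together 0.48 and 0.84.

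Jun, the usual partner of Fos, measured 65.1, 74.8 and 61.9 CPM in water and 71.3, 138, 67.7 and 64.7 CPM in DSS. Only DSS 2 was above the water range, and the log2 change of 0.34 ± 0.25 had an edgeR adjusted p of 0.554. Junb, a Jun relative with its own set of targets, measured 28.9, 42.7 and 32.5 CPM in water and 43.1, 56.3, 55.0 and 34.2 CPM in DSS. DSS 1 to 3 lay above the water libraries, DSS 1 narrowly, while DSS 4 lay among them. The log2 change of Junb was 0.44 ± 0.19 (edgeR adjusted p = 0.305), and 0.15 without DSS 2 and DSS 3. Its span in the count files overlaps that of Prdx2 on the opposite strand, a gene with 2005 to 3467 counts per library. Whether the exons overlap was not checked. Without strand in the counting, reads from shared exons could not be told apart. Fosl2, a Fos relative with a steady message, measured 76.6, 90.4 and 73.1 CPM in water and 81.5, 72.7, 86.0 and 76.8 CPM in DSS, and the groups overlapped throughout (log2 change -0.01 ± 0.09).

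The remaining members of the AP-1 group ran from a well-expressed subunit to one at the limit of counting. Jund, the Jun subunit that many resting cells carry, lay between 55.9 and 74.7 CPM, and Maff between 7.35 and 13.8 CPM, with log2 changes of 0.13 and -0.04. Fosl1, a late Fos relative, had 1 to 17 counts per library and was not tested. In this group of 7 tested members, 3 had an unadjusted p under 0.05, all higher, against 8.36% of all genes. The median log2 change of the group was 0.34. Per length, in TPM, which scale counts by exon length and library size, over the water libraries, Jund led at 36.7 TPM, followed by Jun at 20.8, Fos at 15.0 and Junb at 14.8 TPM, and Fosb stood at 0.264 TPM.

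**Figure D2:**
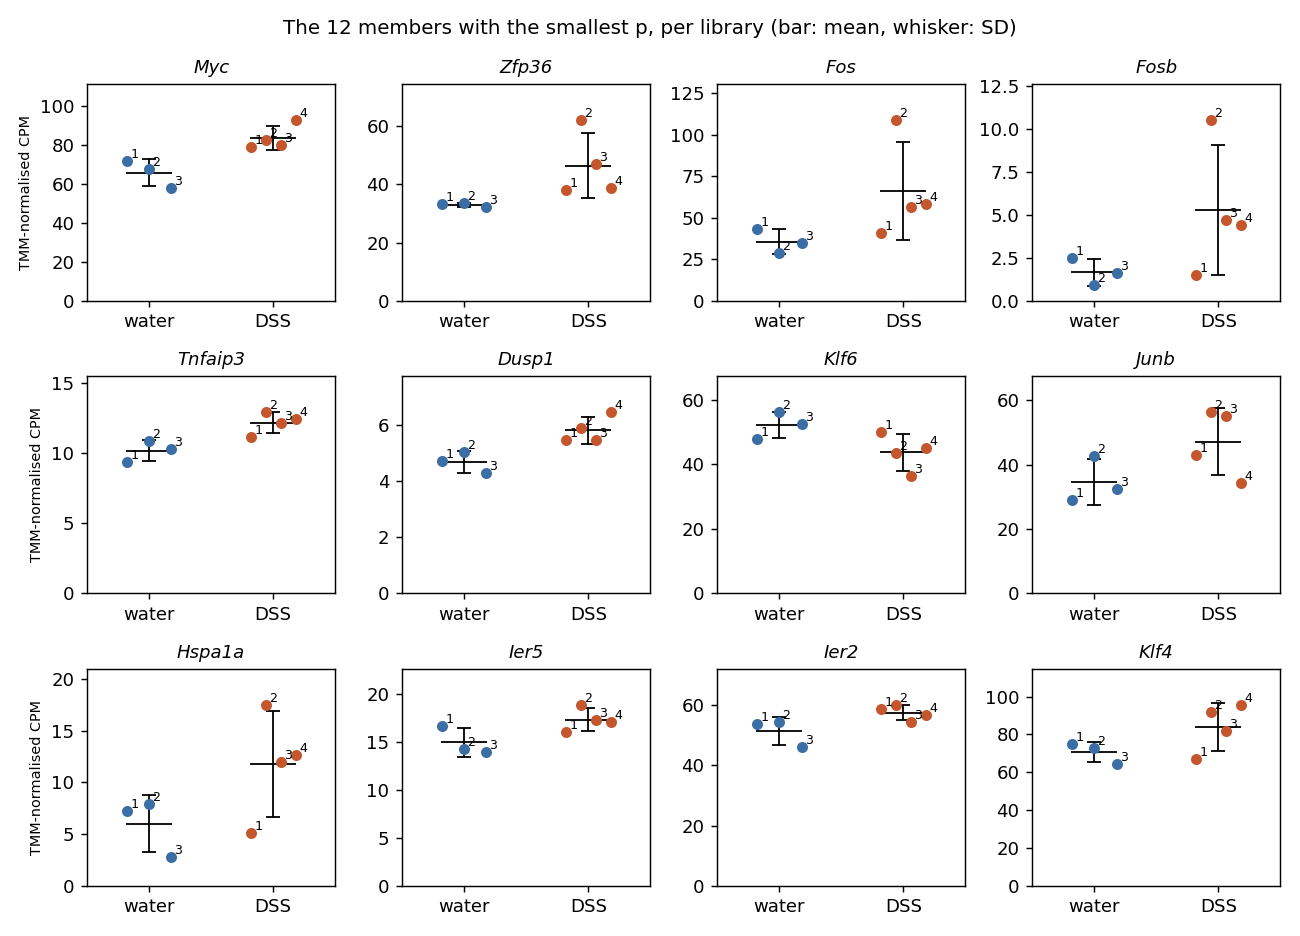
TMM-normalised CPM (y axis, linear from 0) of the 12 members with the smallest p in each library of the water and DSS groups; numbers name the library, bars are means and whiskers SDs. DSS 2 is the highest library for Fos at 109 CPM, Fosb at 10.5, Zfp36 at 62.2 and Hspa1a at 17.5 CPM, and DSS 1 lies within or near the water values for each.

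The 9 other transcription factors of the list did not move as a block. Myc, at chr15:61985391-61990374, the growth regulator that Wnt signals keep on in crypts, measured 71.7, 67.6 and 58.0 CPM in water and 78.8, 82.3, 80.1 and 92.8 CPM in DSS. The groups did not overlap, and DSS 4 was the highest library. The log2 change was 0.35 ± 0.09 (SE), with the smallest p among the members (unadjusted 0.00362, edgeR adjusted 0.157). Without DSS 2 and DSS 3, the libraries with the most tuft cell marker RNA, it was 0.39 with an edgeR adjusted p of 0.573.

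Klf4, a factor of differentiated epithelium, measured 74.7, 72.9 and 64.5 CPM in water and 67.1, 91.9, 81.9 and 95.7 CPM in DSS. DSS 1 was within the water range and the other DSS libraries above it (log2 change 0.25 ± 0.12, edgeR adjusted p = 0.346). Klf6, a related factor induced by injury in many tissues, measured 47.8, 56.1 and 52.6 CPM in water and 50.1, 43.5, 36.2 and 45.1 CPM in DSS. DSS 2 to 4 lay below all water libraries, and DSS 1 lay among them. Klf6 was the member with an unadjusted p under 0.05 in the lower direction (log2 change -0.25 ± 0.11, edgeR adjusted p = 0.296), and the change was -0.13 without DSS 2 and DSS 3. Klf2 stayed between 0.446 and 1.12 CPM, with 10 to 37 counts per library.

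Egr1, a zinc finger factor that serum and growth factors switch on with Fos, measured 17.6, 23.3 and 18.8 CPM in water and 19.97, 27.2, 21.2 and 41.6 CPM in DSS. Here DSS 4 was the highest library, not DSS 2. The log2 change of 0.47 ± 0.24 (edgeR adjusted p = 0.389) was 0.20 without DSS 4. Egr2 lay between 0.357 and 0.793 CPM, and Egr3, at 1 to 11 counts per library, was not tested. The orphan nuclear receptor Nr4a1 measured 11.3, 11.9 and 12.9 CPM in water and 9.96, 3.89, 8.90 and 12.6 CPM in DSS. DSS 2, the highest library for Fos, was the lowest for Nr4a1, and the log2 change was -0.45 ± 0.31 (edgeR adjusted p = 0.532). Its relative Nr4a2 measured 18.3, 21.2 and 20.5 CPM in water and 17.3, 15.5, 14.9 and 20.5 CPM in DSS, with DSS 1 to 3 below the water libraries and DSS 4 among them (log2 change -0.23 ± 0.12, edgeR adjusted p = 0.388), and the change was -0.08 without DSS 2 and DSS 3.

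Of the 4 immediate early response proteins, Ier2 and Ier5, nuclear proteins induced by growth factors and stress, showed small differences. Ier2 measured 53.9, 54.5 and 46.2 CPM in water and 58.6, 60.1, 54.6 and 56.8 CPM in DSS. The groups did not overlap, but water 2 and DSS 3 differed by less than 1 CPM. Ier5 measured 16.6, 14.2 and 13.9 CPM in water and 16.0, 18.8, 17.3 and 17.0 CPM in DSS, where DSS 1 lay below water 1. The log2 changes were 0.16 ± 0.07 and 0.21 ± 0.10, with edgeR adjusted p of 0.337 and 0.322, and that of Ier2 was 0.09 without water 3. Ier3, a survival protein under NF-kB control, lay between 1.15 and 2.44 CPM, and Cyr61, a secreted matrix protein that YAP signalling induces, between 2.25 and 4.15 CPM. Their log2 changes were 0.21 ± 0.26 and 0.04 ± 0.24.

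Among the 7 feedback genes, those that were higher in every DSS library were Zfp36 and Dusp1. Zfp36, or tristetraprolin, binds AU-rich messages such as those of cytokines and Fos and speeds their decay. It measured 33.4, 33.4 and 32.3 CPM in water and 37.9, 62.2, 47.1 and 38.7 CPM in DSS. Every DSS library was above every water library, and DSS 2 and DSS 3 were the highest, as they were for Junb. The means were 33.0 ± 0.642 CPM (SD, n = 3) and 46.5 ± 11.3 CPM (SD, n = 4), and the log2 change was 0.49 ± 0.16 (edgeR adjusted p = 0.209). Without DSS 2 it was 0.32, and without DSS 2 and DSS 3 together 0.21.

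Dusp1, the phosphatase that turns off p38 and JNK, measured 4.73, 5.05 and 4.28 CPM in water and 5.47, 5.89, 5.46 and 6.47 CPM in DSS. All 4 DSS libraries lay above the water libraries, with DSS 4 highest (log2 change 0.32 ± 0.12, edgeR adjusted p = 0.263). Without DSS 2 and DSS 3 the change was 0.35. Dusp5, a nuclear phosphatase of ERK, lay between 8.60 and 10.8 CPM (log2 change -0.13 ± 0.10). The phosphatase gene Dusp2, known from lymphocytes and myeloid cells, had 40 counts in water 3 and 2 to 7 counts in each of the others, and was not tested.

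Btg1 and Btg2 encode antiproliferative proteins that recruit the deadenylase complex, and Btg1 was among the most steady members. Btg1 measured 126, 132 and 123 CPM in water and 125, 115, 129 and 138 CPM in DSS, with the water libraries inside the DSS range (log2 change -0.01 ± 0.07). Btg2 lay between 102 and 132 CPM and Zfp36l1, the Zfp36 relative, between 37.3 and 43.97 CPM, with log2 changes of -0.05 and 0.02. Over the 6 tested members of the feedback group the median log2 change was 0.01. An unadjusted p under 0.05 was found for 2, both higher, against 8.36% of all genes.

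Of the role groups, the heat shock members had the highest median spread within groups. That median rests in part on the near-identical Hspa1a and Hspa1b and on Hspb1, which has few counts. Hspa1a and Hspa1b encode the stress-inducible HSP70, lie at chr17:34969190-34972156 and chr17:34956436-34959238, and are near-identical copies: 58.8% and 62.3% of the 50-base stretches of their transcripts are shared, so the split of reads between them is uncertain. Hspa1a measured 7.18, 7.93 and 2.81 CPM in water and 5.07, 17.5, 12.0 and 12.7 CPM in DSS. Hspa1b measured 21.4, 18.6 and 5.96 CPM in water and 9.52, 41.2, 27.9 and 28.0 CPM in DSS. For both copies DSS 2 to 4 lay above the water libraries, DSS 1 lay within their range, and water 3 was the lowest of all. The log2 changes were 0.99 ± 0.43 and 0.81 ± 0.50, with edgeR adjusted p of 0.310 and 0.472. Without water 3 they were 0.65 and 0.42, without DSS 2 0.74 and 0.52, and without DSS 2 and DSS 3 together 0.59 and 0.31.

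Summed, which does not depend on the split, the pair measured 28.6, 26.5 and 8.77 CPM in water and 14.6, 58.7, 39.9 and 40.6 CPM in DSS. The means were 21.3 ± 10.9 CPM (SD, n = 3) and 38.4 ± 18.1 CPM (SD, n = 4). Hspa1a took between 25.1% and 34.7% of the sum in each library. Within the 3 libraries whose titles share a number, which set water 3 alone against DSS 2 and DSS 3, the log2 change was 2.39 for Hspa1a and 2.54 for Hspa1b, with edgeR adjusted p of 0.0288 and 0.0189, where 0.0926% of all genes were called higher. With 1 water library in that fit, the lone sample is assumed to vary like the others, and it was the library with the least message of both genes.

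Of the other heat shock members, Dnajb1 also had DSS 2 to 4 above the water libraries, DSS 2 only narrowly, and Hspa8 and Hsph1 did not. The highest library was DSS 2 for the HSP70 pair but DSS 4 for Dnajb1. Hspa8, the constitutive HSC70 and the most abundant member, measured 757, 785 and 577 CPM in water and 582, 675, 796 and 731 CPM in DSS, and the groups overlapped throughout (log2 change -0.02 ± 0.14). Dnajb1, the J-domain partner of HSP70, measured 34.4, 34.5 and 29.9 CPM in water and 32.9, 35.1, 38.1 and 41.9 CPM in DSS. DSS 2 to 4 were above all water libraries and DSS 1 was among them (log2 change 0.17 ± 0.09, edgeR adjusted p = 0.424), and water 3 was the lowest library. The change was 0.11 without water 3 and 0.11 without DSS 4. Hsph1, the HSP110 exchange factor, ran from 119 CPM in DSS 1 to 209 CPM in water 1 (log2 change -0.23 ± 0.18). Hspb1, a small heat shock protein, had 1 count in water 1 and 14 to 26 in each of the others (log2 change 0.64 ± 0.56).

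Of the 3 NF-kB feedback genes, Tnfaip3 alone separated the groups. Tnfaip3 encodes A20, the ubiquitin-editing brake on TNF signalling, and measured 9.37, 10.9 and 10.3 CPM in water and 11.2, 12.9, 12.2 and 12.4 CPM in DSS. The groups did not overlap, with DSS 1 narrowly above water 2 (log2 change 0.26 ± 0.10, edgeR adjusted p = 0.251), and the change was 0.21 without DSS 2 and DSS 3. Nfkbiz, which encodes the inhibitor-like cofactor IkB-zeta, measured 46.3, 44.5 and 52.8 CPM in water and 45.4, 34.6, 40.8 and 57.1 CPM in DSS. DSS 4 was the highest library and DSS 2 the lowest, with a log2 change of -0.11 ± 0.15. Nfkbia, the inhibitor that NF-kB itself induces, lay between 36.7 and 47.3 CPM (log2 change -0.01 ± 0.11).

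**Figure D3:**
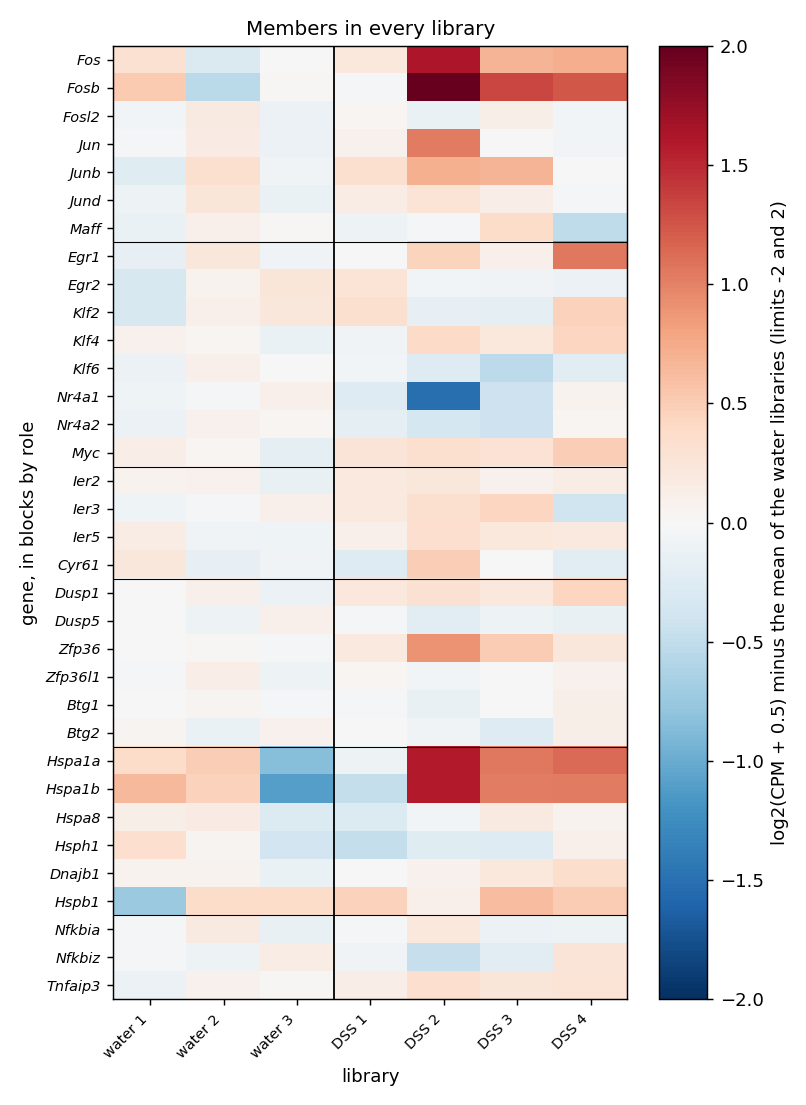
Each tested member (rows, in blocks by role) in each library (columns), as log2(CPM + 0.5) minus the mean of the water libraries, with the colour limits on the scale. Fos, Fosb, Hspa1a and Hspa1b are reddest in DSS 2, Egr1 in DSS 4, and Nr4a1 is bluest in DSS 2, while DSS 1 is pale in most rows.

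Read by library rather than by group, the members peaked unevenly. DSS 2 was the highest library for 13 of the 34 tested members and DSS 4 for 9, against 16.1% and 12.5% of all genes, while DSS 1 was the highest for 1. Water 3 was the lowest library for 14 members, against 15.2% of all genes. The 37 members together took 0.189%, 0.189% and 0.161% of the counts in water 1 to 3. Their shares were 0.179%, 0.228%, 0.241% and 0.243% in DSS 1 to 4, each with a 95% Wilson interval of at most 0.00190 percentage points to either side, which covers counting error only. The shares of DSS 2 to 4 were above all water shares, and that of DSS 1 lay between them. These shares are of library totals, on which the median gene itself stood 0.10, 0.18, 0.30 and 0.28 above the water mean in DSS 1 to 4 on the log2 scale, beside member means of 0.12, 0.48, 0.48 and 0.51. With TMM scaling the member means were 0.02, 0.29, 0.18 and 0.23.

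The role groups did not peak in the same library. On a log2 scale relative to the water mean, the AP-1 group averaged 0.10, 0.84, 0.47 and 0.19 in DSS 1 to 4 and -0.06 to 0.04 in water. The other transcription factors averaged 0.04, -0.15, -0.12 and 0.28 in DSS 1 to 4, so that DSS 4 was highest and DSS 2 lowest. The heat shock members averaged -0.14, 0.51, 0.47 and 0.53 in DSS 1 to 4 and 0.13, 0.27 and -0.40 in water 1 to 3. The levels of DSS 1 and water 3 were thus below the others of their groups for heat shock members. The near-identical Hspa1a and Hspa1b make up 2 of the 6 members in this mean, which also holds Hspb1 with its 1 count in water 1.

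The 2 DSS libraries with the highest AP-1 means, DSS 2 and DSS 3, were also those with 902 and 897 CPM of tuft cell markers, shared an isolation day, an age and a title number, and had an AP-1 mean of 0.84 and 0.47. Tuft marker levels in DSS 1 and DSS 4 were within or below the water range, at 479 and 456 CPM, with AP-1 means of 0.10 and 0.19. Water 3 had the same title number and age as DSS 2 and DSS 3, with an AP-1 mean of -0.06 and 481 CPM of tuft cell markers. DSS 4 had the same age. The part of tuft cells, isolation day or title number in the AP-1 levels was not tested, and these labels cannot be told apart in DSS 2 and DSS 3. The share of mitochondrial counts ran only from 1.71% to 2.33% over the 7 libraries. Water 1 and water 2 were isolated on 1 day and had heat shock means of 0.13 and 0.27, and water 3, isolated on another day, had -0.40. Water 3 also differed from both in age and title number. The part of these labels cannot be told apart and was not tested.

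**Figure D4:**
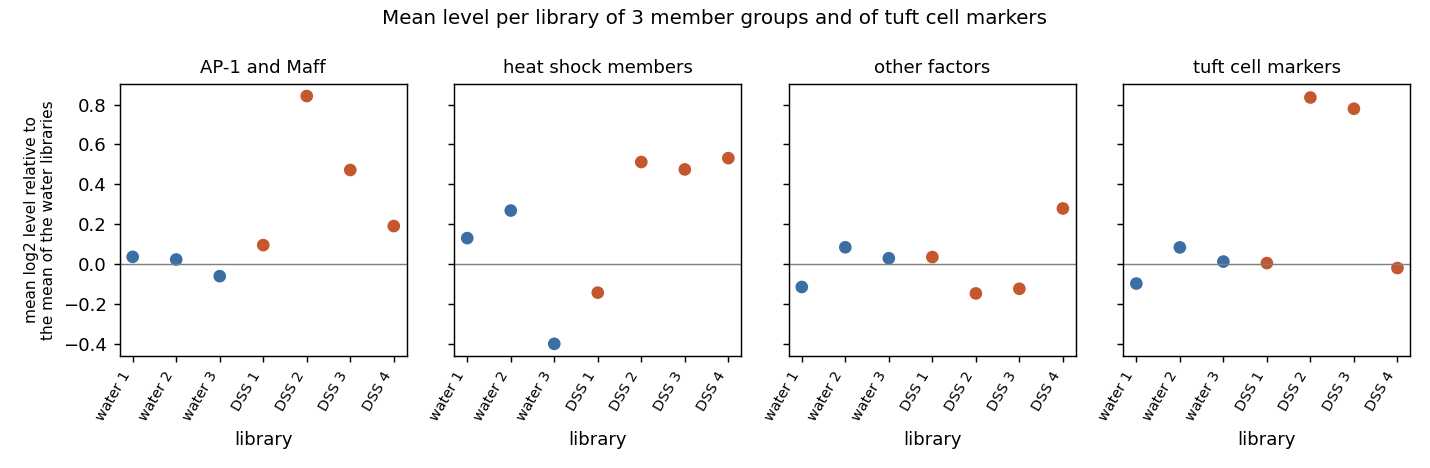
Mean log2 level relative to the water mean (y axis, log2 scale) in each library for the AP-1 group, the heat shock members, the other transcription factors and the tuft cell markers; each point is 1 library. The AP-1 and tuft panels are highest in DSS 2 and DSS 3, the heat shock panel has DSS 1 at -0.14 below the other DSS libraries at 0.47 to 0.53, and the other factors peak in DSS 4 at 0.28.

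The typical member varied more between libraries of 1 group than the median gene, which is given as a description without a test. The median SD of log2(CPM + 0.5) within groups was 0.22 over the 34 members and 0.15 over all tested genes, and 8 of the 34 (23.5%) lay above the 90th percentile of all genes: Fos, Fosb, Jun, Egr1, Nr4a1, Hspa1a, Hspa1b and Hspb1. The share was similar, at 24.0%, in 50 further immediate early genes and higher, at 85.7%, in the 7 tuft cell markers. It was 4.0% in 25 further heat shock genes and 0% in 24 further NF-kB genes. The median percentile of spread was 90.6 for the heat shock group and 88.5 for the AP-1 group, but 25.7 for the feedback group. In the heat shock group, the near-identical Hspa1a and Hspa1b stood at 98.4 and 99.1, and Hspb1, with 1 count in water 1, at 94.9. Hsph1, Hspa8 and Dnajb1 stood at 86.3, 72.2 and 45.9. Btg1, Dusp5, Zfp36l1, Tnfaip3 and Ier2 lay between percentiles 19.5 and 23.9. Low level did not go with wide spread throughout: Fos and Jun, at percentiles 96.0 and 93.8 of spread, were at percentiles 82.7 and 87.6 of water TPM.

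**Figure D5:**
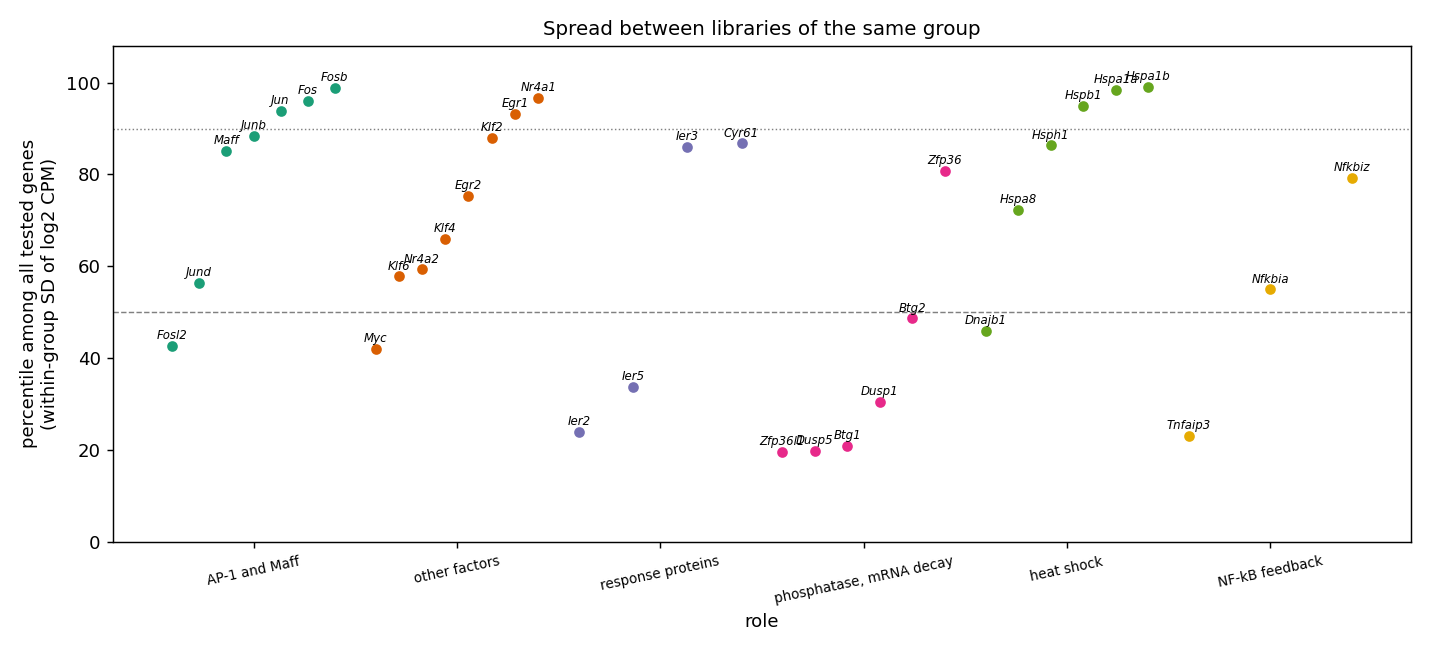
Percentile of the within-group SD of log2(CPM + 0.5) among all 17449 tested genes (y axis) for each tested member, by role (x axis); the dashed line marks the median gene and the dotted line the 90th percentile. Fosb at 98.8 and Hspa1b at 99.1 are at the top, and 5 of the 6 tested feedback genes lie below the median.

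Genes around the members, from lists of related genes, were likewise without a call over all genes. Of 50 tested further immediate early genes, 0 passed in edgeR, with a median log2 change of 0.06. At an unadjusted p under 0.05, 7 were higher and 4 lower, against 8.36% and 7.35% of all genes. The smallest p values belonged to Id3 and Id1, inhibitors of basic helix-loop-helix factors and targets of BMP signalling, with log2 changes of 0.75 ± 0.16 and 0.58 ± 0.13 (edgeR adjusted p = 0.138 for both). Id3 measured 9.64, 11.3 and 13.2 CPM in water and 14.9, 19.7, 18.5 and 23.3 CPM in DSS, and Id1 likewise separated the groups. Klf10, a TGF-beta-induced factor, measured 34.3, 40.7 and 39.8 CPM in water and 29.8, 23.8, 30.5 and 21.8 CPM in DSS, with no overlap (log2 change -0.53 ± 0.13, edgeR adjusted p = 0.139). Tob2, an antiproliferative relative of Btg1, had a log2 change of 0.29 ± 0.08 (edgeR adjusted p = 0.162).

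Chaperones and stress genes outside the list were not higher in DSS 2 to 4 as the HSP70 pair was. Of 25 tested further heat shock genes, 0 passed, and 8 estimates were above 0 (median log2 change -0.06). At an unadjusted p under 0.05, 0 were higher and 2 lower, against 8.36% and 7.35% of all genes. Their mean log2 level relative to the water mean was -0.15, -0.08, -0.02 and -0.03 in DSS 1 to 4. Among the lower genes was St13, an HSP70 cochaperone, with a log2 change of -0.17 ± 0.06. Hsp90aa1, the inducible HSP90, and Chordc1, its cochaperone, had log2 changes of -0.27 ± 0.12 and -0.21 ± 0.10.

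Of 24 tested further NF-kB pathway genes, 0 passed. At an unadjusted p under 0.05, 3 were higher and 2 lower, against 8.36% and 7.35% of all genes. They included Zc3h12a, the RNase regnase-1, at 0.25 ± 0.07 on the log2 scale, the kinase Chuk at -0.16 ± 0.06, the nuclear inhibitor Nfkbid at 0.48 ± 0.19 and the ubiquitin ligase Birc2 at -0.16 ± 0.06. Of 21 upstream genes of the serum response factor, MAP kinase and CREB routes, 1 was higher and 1 lower at that level, against the same shares. These were Rps6ka1 at 0.23 ± 0.09 and Crem at -0.58 ± 0.18. Srf itself had a log2 change of 0.17 ± 0.08 and the kinase Mapk9 of -0.14 ± 0.07.

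Levels of cold-inducible and nuclear RNAs were also read, and their link to handling was not tested. Rbm3, the RNA-binding protein that mild cold induces, measured 78.7, 78.9 and 76.1 CPM in water and 80.5, 99.4, 127 and 109 CPM in DSS, above all water libraries in each (log2 change 0.42 ± 0.13, edgeR adjusted p = 0.200). Its relative Cirbp had a log2 change of 0.09 ± 0.12. The nuclear RNA Neat1 measured 279, 441 and 453 CPM in water and 281, 188, 204 and 281 CPM in DSS, and water 1 lay with the DSS libraries (log2 change -0.71 ± 0.20, edgeR adjusted p = 0.171). Malat1, also retained in the nucleus, had a log2 change of -0.19 ± 0.12.

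The scale of the libraries bore on how many members passed. TMM factors were 0.899 to 0.922 in water and 0.980 to 1.14 in DSS, and with library totals only the median of all genes moved from 0.00 to 0.23. In that fit 2107 genes were higher and 28 lower, and the 9 members called were all higher (Dusp1, Fos, Ier2, Ier5, Junb, Jund, Myc, Tnfaip3 and Zfp36). Relative to the median of all genes, the members' median was 0.17 higher with either scaling. In DESeq2, Myc had an adjusted p of 0.0217, among 347 genes higher and 297 lower. With age as a covariate, 2 members were higher at an unadjusted p under 0.05, against 5.24% of genes, and 0 lower, against 4.67%.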

How the data were processed

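RNA of sorted Paneth cells was sequenced in 7 libraries, 3 on water and 4 after DSS. The authors deposited raw counts per gene; per the file headers, featureCounts 1.5.3 counted primary alignments that overlapped the exons of GENCODE mouse release 15 by a fraction of at least 0.8, without using strand. Alignment with STAR 2.5.3a, the build mm10, DESeq2 and another featureCounts version, 1.5.2, are named in the submitters' processing notes. Symbols came from GENCODE release 21 (52403 of 52550 identifiers matched). Replicate numbers follow accession order and pair no samples. No pair of libraries agreed within sampling noise (smallest chi-square per degree of freedom 14.5).

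From the counts, edgeR 4.0.16 in R 4.3.3 filtered genes (filterByExpr), scaled by TMM and compared DSS with water by its quasi-likelihood test, with Benjamini-Hochberg adjustment over 17449 genes and a threshold of 0.05. CPM are TMM-normalised, means ± SD are over libraries, and TPM used counted exon lengths. The log2 scale of single libraries used a pseudocount of 0.5 CPM. The rule gave values in every library for the 16 members with the smallest p and the member with the highest mean level of each role group, and for others given in full the values were chosen after seeing them; up to 4 genes per related list were named by p, of which 1 is not reported here. Members and lists were chosen with earlier results of these data known. Alternatives were other scalings, DESeq2 1.42.0, limma-voom 3.58.1, other filters, age as a covariate, subsets by age, title number or library name number (numbers whose meaning the labels do not give), and leaving out each library; leaving out DSS 2 with DSS 3 was added after seeing the data. On simulated data for this comparison over 17449 genes, edgeR recovered 49.3% of 67 genes changed 1.5-fold, 88.1% of 67 changed 2-fold and 100% of 66 changed 4-fold. The changed genes were drawn from those with a mean above 2 CPM. The simulated libraries varied independently, without differences of day, age or cell content, so these shares need not hold for the members.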

Additional observations from a re-analysis of the deposited data

Results flagged for a closer look

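The mean log2 level of the 6 heat shock members set DSS 1 apart from the other DSS libraries. The near-identical Hspa1a and Hspa1b make up 2 of these 6. DSS 1 stood at -0.14 and DSS 2 to 4 at 0.47 to 0.53 relative to the water mean, so the gap to the nearest library was 0.916 of the whole range of the 4 libraries, above Dixon's 95% limit for 4 samples. Of 28 series examined in this way this was the 1 past the limit, and chance alone passes about 5% of such series. DSS 1 was the one library isolated on day 9, and the one DSS library from a mouse of 12 weeks.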

How the results depend on the processing

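With library totals only, 2107 genes were higher and 28 lower, 9 members were higher, their median log2 change was 0.40, and their mean log2 levels in DSS 2, DSS 3 and DSS 4 were 0.48, 0.48 and 0.51. DESeq2 gave 347 genes higher, 297 lower and 1 member higher. Without a low-count filter there were 240 genes higher and 201 lower, 4 members higher (Fos, Fosb, Myc and Zfp36) and 1 lower, Dusp2, which had 40 counts in water 3 and at most 7 elsewhere. Among 10-week mice, with water 3 as the only water library, the members' median was 0.28. The libraries sharing a title number gave 17 genes higher, 41 lower, 2 members higher and a median of 0.31, and library name number 6 only gave 3 genes higher and 6 lower. Leaving out 1 library gave 0 to 168 genes higher, 0 to 135 lower, and a members' median of 0.11 to 0.20; 168 and 135 came without DSS 1, and 9 higher without DSS 4. The cause of these differences was not tested.

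Of 380 values of the 20 members given in full by the rule, 333 kept direction and side of the threshold, 15 passed it newly and 32 changed sign, over 6 members, whose values under the alternatives that changed sign follow. With library totals only Nr4a2 was at 0.0064, Fosl2 at 0.22, Btg1 at 0.23, Hspa8 at 0.23 and Nfkbiz at 0.13. With limma-voom Fosl2, Btg1 and Hspa8 were at 0.0088, 0.0066 and 0.0086. Without a filter Btg1 was at 0.0023, and with age as a covariate Fosl2 was at 0.0384 and Btg1 at 0.0026. Among 10-week mice Fosl2, Btg1 and Hspa8 were at 0.10, 0.0449 and 0.35, and among libraries sharing a title number Fosl2 and Hspa8 were at 0.12 and 0.35. In both of these subsets water 3 was the only water library. With library name number 6, where DSS 4 was the only DSS library, Junb was at -0.0257, Nr4a2 at 0.0296, Btg1 at 0.11, Hspa8 at 0.043 and Nfkbiz at 0.25. Without DSS 2 and DSS 3 Btg1 was at 0.0502 and Nfkbiz at 0.10. Leaving out 1 library moved Hspa8 between -0.15 and 0.0596, Fosl2 between -0.074 and 0.0809, and Btg1 between -0.0498 and 0.0383.

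The replicate numbers follow accession order and tie no libraries together. A title number occurs in both groups only for water 3, DSS 2 and DSS 3, whose fit is given above. At these depths members under 1 CPM rest on few counts.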
